A study of Mus musculus with 8 samples.

Results

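The genes described here are the nuclear-encoded genes of oxidative phosphorylation. They were chosen by symbol: every mouse gene whose name begins with Nduf, Uqcr, Atp5 or Cox4 to Cox8, together with Sdha, Sdhb, Sdhc, Sdhd, Cyc1 and Cycs. Among RefSeq gene symbols, 117 met this rule. Of these, 95 had a probe on the array, out of 21368 genes with a probe, and 22 were not measured, 19 of them pseudogenes. The rule used no measured value. By enzyme complex, 46 of the 95 genes belong to complex I and its Ndufaf assembly factors, 4 to complex II, 9 to complex III, 18 to complex IV and 17 to complex V, and 1 encodes cytochrome c.

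Oxidative phosphorylation takes place in the inner mitochondrial membrane. Complex I (NADH dehydrogenase) and complex II (succinate dehydrogenase) pass electrons to ubiquinone, complex III (the cytochrome bc1 complex) passes them to cytochrome c, and complex IV (cytochrome c oxidase) passes them to oxygen. Complex V, the ATP synthase, uses the proton gradient built by complexes I, III and IV to make ATP. Most subunits are encoded in the nucleus and imported, while a smaller number come from mitochondrial DNA and were not among the genes described here. Neurons depend on this pathway for the ATP that ion pumps and synapses consume.

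Hippocampal RNA came from 8 female mice, 1 array per mouse. All were nontransgenic littermates of APPswe695/PSEN1dE9 mice on the C57BL/6J background, so neither group carried the transgenes. The 4 Hydroxyurea mice drank hydroxyurea, an inhibitor of ribonucleotide reductase, at 45 mg/kg/day in their water for 10 weeks. At the end of treatment the first pair, Hydroxyurea 1 and 2, had reached 24 weeks and the second pair, Hydroxyurea 3 and 4, had reached 19. The 4 Control mice were untreated and aged 19 weeks, so no Control mouse matched the older pair in age. The question put by the design is whether hydroxyurea changed hippocampal expression.

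The value of a gene is log2 of its background-subtracted spot signal minus its array's 75th percentile, so 0 marks the array's 75th percentile and a difference of 1 is a doubling of signal. All 8 hippocampal neuron markers checked were tested, with summed signals of 44.8 to 58.3 times the 75th percentile in Hydroxyurea mice and 43.5 to 55.1 in Control mice. For 7 of the 8 the Hydroxyurea mean was below the Control mean (51.3% of all genes) and for 1 it was above. The median difference was -0.10, and the groups overlapped for each marker. Control 1 stood apart in technical spread: replicate spots of one probe had a median coefficient of variation of 9.69% there, against 2.84% to 3.17% on the other 7 arrays. All arrays lay on 1 slide, Hydroxyurea in row 2 and Control in row 1, and this row cannot be told apart from the treatment. In RNA from whole hippocampus, fewer cells of a type and less RNA per cell cannot be told apart.

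Promoters are shown for 4 of the genes because they differ in the elements known from respiratory genes and include the genes with the smallest p (Ndufaf1) and the largest difference (Cox8b). Each runs from 250 bases before to 50 bases after the RefSeq transcription start on GRCm38.p6, with matches to 3 motifs in capitals. The motifs were a palindrome bound by NRF1 (the first capitals of Cox6a1), CCGGAAG, bound by ETS factors such as GABP, and a longer word bound by YY1 (capitals of Ndufs7), each searched on both strands. No match overlaps another in the sequences shown. Ndufaf1 (chr2:119662785-119663084, minus strand) holds the ETS word at position -18 from its start. Cox6a1 (chr5:115348909-115349208, minus strand) holds the NRF1 word at position -162 and the ETS word, on the reverse strand, at position -16. Ndufs7 (chr10:80249199-80249498, plus strand) holds the YY1 word at position 25. Cox8b (chr7:140900397-140900696, minus strand) holds none of the 3 in this window.
Ndufaf1: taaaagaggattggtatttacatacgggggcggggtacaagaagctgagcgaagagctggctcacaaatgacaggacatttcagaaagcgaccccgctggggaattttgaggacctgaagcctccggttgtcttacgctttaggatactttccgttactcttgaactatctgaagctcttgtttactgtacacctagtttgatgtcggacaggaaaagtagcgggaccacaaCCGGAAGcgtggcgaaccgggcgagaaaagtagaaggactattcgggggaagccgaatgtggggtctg
Cox6a1: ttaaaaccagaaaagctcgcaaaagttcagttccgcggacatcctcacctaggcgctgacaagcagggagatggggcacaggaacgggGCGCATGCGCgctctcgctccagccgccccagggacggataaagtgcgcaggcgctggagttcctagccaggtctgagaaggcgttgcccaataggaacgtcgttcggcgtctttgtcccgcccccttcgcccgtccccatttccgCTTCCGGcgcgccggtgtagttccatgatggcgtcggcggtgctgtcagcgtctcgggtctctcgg
Ndufs7: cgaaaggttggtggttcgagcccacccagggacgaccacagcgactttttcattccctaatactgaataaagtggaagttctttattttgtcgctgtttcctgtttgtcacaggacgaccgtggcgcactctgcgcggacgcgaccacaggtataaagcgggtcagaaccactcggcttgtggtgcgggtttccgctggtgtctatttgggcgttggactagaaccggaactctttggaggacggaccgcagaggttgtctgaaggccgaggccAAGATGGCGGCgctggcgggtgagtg
Cox8b: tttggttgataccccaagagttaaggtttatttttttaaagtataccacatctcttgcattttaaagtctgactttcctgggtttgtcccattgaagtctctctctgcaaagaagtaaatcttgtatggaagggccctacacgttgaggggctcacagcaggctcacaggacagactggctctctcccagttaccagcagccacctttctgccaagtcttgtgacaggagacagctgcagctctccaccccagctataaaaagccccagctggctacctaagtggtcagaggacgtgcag

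Promoter sequences were matched for 77 of the 95 genes, as 82 entries. The NRF1 word stood in 7 of them, or 8.54%, against 0.971% of 32851 mouse promoters and 1.6% of the promoters of genes tested here. The ETS word stood in 19, or 23.2%, against 8.86% of all promoters and 14.0% of those of tested genes. The YY1 word stood in 5, or 6.10%, against 0.633% of all promoters and 1.14% of those of tested genes, and a looser form with 1 base left free was in 0.986% of all promoters and in the same 5 genes. All 5 genes with the YY1 word belong to complex I: Ndufa9, Ndufaf8, Ndufs4, Ndufs6 and Ndufs7. Cox6a1, which encodes the widely expressed form of subunit VIa of cytochrome c oxidase, held 2 of the words. So did Atp5k, with the NRF1 and ETS words, and Ndufaf8, with the ETS and YY1 words. A match is a run of letters, and binding was not measured.

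These genes were measured firmly in the hippocampus. Of the 95, 94 were well above background on all 8 arrays (98.9%, against 70.9% of all genes with a probe). The exception was Cox8c, the testis form of subunit VIII, for which no array gave a signal well above background, so it was not tested. The 94 tested genes also varied little between mice. Their median SD over the 8 mice was 0.09 on the log2 scale, against 0.16 over the 16618 genes tested, and the median SE of the treatment difference was 0.07 against 0.10.

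No gene of oxidative phosphorylation passed the test for treatment. With limma's moderated test over 16618 genes and Benjamini-Hochberg adjustment, 0 of the 94 genes had an adjusted p under 0.05, against 0% of all genes (0 of 16618), and the smallest was 0.476. Without adjustment, p was under 0.05 for 1 of the 94 (9.89% of all genes): 0 were higher, against 3.53% of all genes, and 1 was lower (1.06%), against 6.36% of all genes. In 55 of the 94 the Hydroxyurea mean was above the Control mean (58.5%), against 48.7% of all genes. The median difference, Hydroxyurea minus Control, was 0.02 for these genes and -0.0038 for all genes. The sign of that small median depends on the scaling of the arrays.

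The size of change that the data allow is narrower than for most genes. The 95% interval of the difference lay within a 1.5-fold change either way for 90 of the 94 (95.7%), against 77.7% of all genes tested. The 4 exceptions were Sdha, Cox8b, Cox6b2 and Cox7b2. It lay within a rise of 25% and the equivalent fall for 72 of the 94 (76.6%), against 42.1% of all genes. The intervals hold for this scaling only. The median difference of the 94 was -0.13 with the array mean subtracted and 0.22 with division by the array SD. These intervals are for single genes and were not widened for the number of genes or for the choice of scaling. The plot of differences by complex shows 93 of them.

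**Figure D1:**
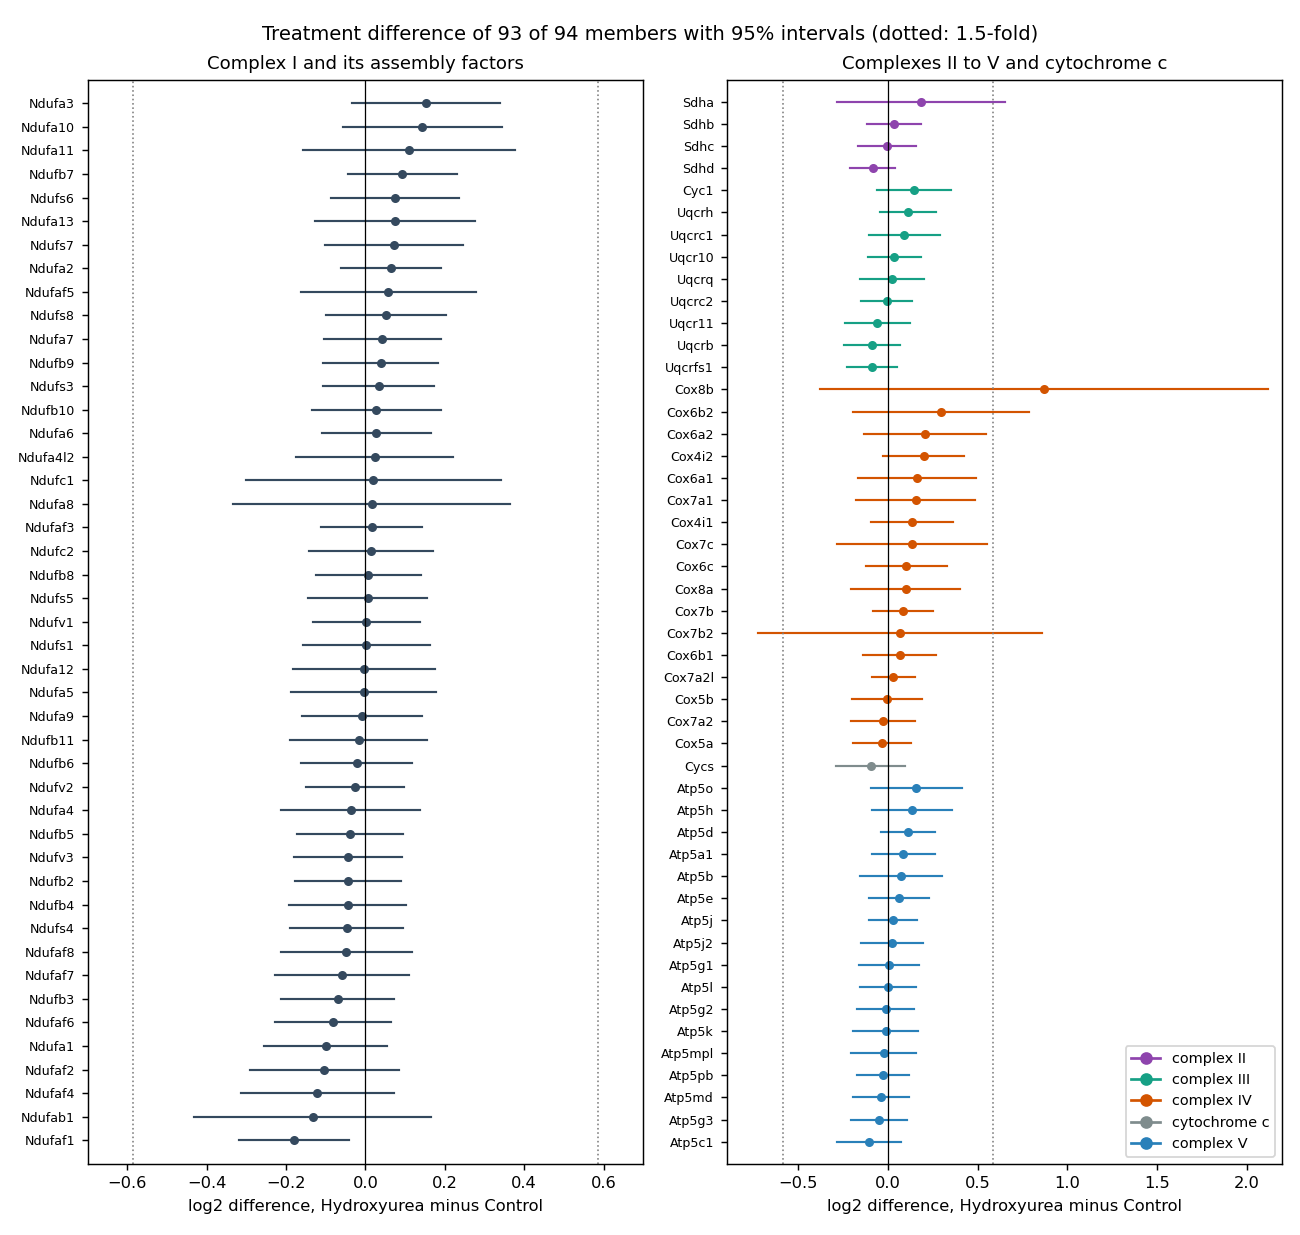
Difference of log2 values, Hydroxyurea minus Control, for 93 of the 94 tested genes (points) with 95% intervals (lines), complex I on the left and complexes II to V and cytochrome c on the right. The dotted lines mark a 1.5-fold change. All 45 intervals drawn for complex I lie inside them, and the widest interval is that of Cox8b.

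Complex I took the largest number of genes, and its differences were centred near 0. Of 46 genes, 25 lay above 0 and 21 below, with a median of 0.004. The assembly factors of the Ndufaf family, which help build the complex and are not part of it, were below 0 in 6 of 8, with a median of -0.07. With only the 19-week mice, or with age as a covariate, 4 were above and 4 below 0, with a median of 0.0037. The 38 subunits and related genes without them had a median of 0.01, with 23 above 0. None of these group medians was tested.

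Ndufaf1, which encodes an assembly factor of the membrane arm of complex I, had the smallest p of all 94 genes. Its values were 2.12, 1.97, 2.11 and 2.11 in Hydroxyurea mice 1 to 4, against 2.24, 2.23, 2.33 and 2.24 in Control mice 1 to 4. Every Hydroxyurea mouse was below every Control mouse, and no other of the 94 genes had groups that did not overlap (lower in 1 of 94, against 5.11% of all genes, and higher in 0, against 2.38%). The difference was -0.18 ± 0.06 (SE, n = 4 and 4), with a 95% interval of -0.32 to -0.04. Its limma p was 0.017 and its adjusted p 0.476, so it did not pass. Over the 21 other ways of processing and leaving out arrays its difference was -0.33 to -0.10, with adjusted p of 0.184 to 0.732.

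Among the other complex I genes, groups overlapped. The accessory subunits Ndufa3, Ndufa10 and Ndufb7 had differences of 0.15, 0.14 and 0.09, and the accessory subunit Ndufa1, encoded on chromosome X, had -0.10. The smallest adjusted p among these was 0.562.

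Some complex I genes hardly varied at all. Ndufv2, a core subunit of the NADH-oxidising module, had values of 4.96 to 5.06 in Hydroxyurea mice and 5.01 to 5.09 in Control mice. The assembly factor Ndufaf3 had 1.77 to 1.83 in Hydroxyurea mice and 1.71 to 1.86 in Control mice. Their SDs over the 8 mice were 0.041 and 0.045. Ndufa4, which copurifies with complex IV in spite of its name, had 5.38 to 5.62 in Hydroxyurea mice and 5.46 to 5.63 in Control mice. Its paralogue Ndufa4l2, known as a hypoxia-induced gene, was well above background on all 8 arrays, with -1.0 to -0.79 in Hydroxyurea mice and -1.09 to -0.77 in Control mice.

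Complex II has only the Sdh genes. The membrane anchor Sdhd had values of 4.25, 4.21, 4.31 and 4.36 in Hydroxyurea mice, against 4.39, 4.39, 4.35 and 4.34 in Control mice, a difference of -0.09 ± 0.06 (SE, adjusted p = 0.615). The iron-sulphur subunit Sdhb and the anchor Sdhc differed by 0.03 and -0.0052. Sdha, the catalytic flavoprotein, had 4.75, 4.66, 4.80 and 4.81 in Hydroxyurea mice, against 3.90, 4.81, 4.83 and 4.74 in Control mice. Control 1 alone was low and the other 7 mice lay close together. The difference of 0.18 ± 0.20 (SE, adjusted p = 0.775) became -0.04 without Control 1.

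Complex III was spread on both sides of 0, with 5 of 9 genes above it, a median of 0.02 and a range of -0.09 to 0.14. Cyc1, which encodes the haem protein cytochrome c1, had 4.66, 4.92, 5.0 and 4.91 in Hydroxyurea mice, against 4.78, 4.83, 4.61 and 4.70 in Control mice. Hydroxyurea 1 fell among the Control mice and the other 3 Hydroxyurea mice were above all Control mice. The difference was 0.14 ± 0.09 (SE, adjusted p = 0.608). The hinge protein gene Uqcrh and the core protein gene Uqcrc1 differed by 0.11 and 0.09, while the Rieske iron-sulphur subunit Uqcrfs1, Uqcrb and Uqcr11 differed by -0.09, -0.09 and -0.06. Their adjusted p-values were 0.601 or more. Cycs, the electron carrier cytochrome c, had 5.01, 5.18, 5.29 and 5.24 in Hydroxyurea mice, against 5.14, 5.36, 5.35 and 5.27 in Control mice, with a difference of -0.10 ± 0.08 (SE, adjusted p = 0.707).

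Complex IV had the highest median of the complexes, 0.10, with 14 of its 17 tested genes above 0. That median was 0.06 without Control 1, 0.06 without Hydroxyurea 2, 0.023 without both and 0.16 without Hydroxyurea 1. Cytochrome c oxidase subunits come in widely expressed and tissue-restricted isoforms. The restricted forms were Cox4i2, known from lung, Cox6a2, Cox7a1 and Cox8b, known from heart and skeletal muscle, and Cox6b2 and Cox7b2, known from testis. These 6 were grouped after their values had been seen. All 6 were above 0, with a median of 0.20, and the other 11 had a median of 0.08 with 8 above 0. With each array centred on its median, and with quantile normalization, 5 of the 6 were above 0, and the other 11 had medians of 0.0023 and -0.015. None of the 17 had an unadjusted p under 0.05.

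Cox8b had the largest difference and the largest spread of all 94 genes, with an SD of 0.94 over the 8 mice. Its values were -1.13, -0.91, -0.73 and 1.17 in Hydroxyurea mice, against -1.92, -1.56, -0.41 and -1.19 in Control mice. Hydroxyurea 4 stood high, Control 3 was second, and the groups overlapped. The difference was 0.87 ± 0.54 (SE, 95% interval -0.38 to 2.12, adjusted p = 0.604), and 0.35 without Hydroxyurea 4. Hydroxyurea 4 was also the highest for markers of the choroid plexus, a tissue that adjoins the hippocampus. Control 1 was the lowest of the 8 mice for Cox8b and for the sum of these markers. In that sum Hydroxyurea 2, at -0.91 for Cox8b, was above Control 3 (164.7 against 105.7). For the single markers Clic6 and Otx2 it was below Control 3 (1.44 against 1.75 and -0.04 against 0.37). The 8 choroid plexus markers, all tested and all detected on every array, summed to 18.04, 164.7, 82.0 and 219.6 times the 75th percentile in Hydroxyurea mice 1 to 4, against 8.51, 29.7, 105.7 and 54.8 in Control mice 1 to 4. All 8 lay above 0 for treatment, with a median of 1.30 and 0 of them with an unadjusted p under 0.05 (9.89% of all genes). That median was 0.62 without Hydroxyurea 4, 0.83 without Control 1 and, with 2 of the 8 then higher at an unadjusted p under 0.05, 1.87 without Hydroxyurea 1. The 5 ependymal markers summed to 4.72, 1.65, 1.91 and 7.38 in Hydroxyurea mice and to 1.10, 2.52, 4.28 and 2.52 in Control mice. Of 6 skeletal muscle markers 5 were tested and Ckm was not, with sums of 0.77 to 0.91 in Hydroxyurea mice and 0.67 to 0.90 in Control mice. Most of these sums came from Acta1, with log2 values of -0.78 to -0.55 in Hydroxyurea mice and -0.93 to -0.55 in Control mice. The part of these cells in the Cox8b values was not tested.

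The other restricted isoforms were detected in all 8 mice. Cox4i2 had -1.36, -1.04, -1.21 and -1.37 in Hydroxyurea mice, against -1.44, -1.32, -1.60 and -1.40 in Control mice, and the groups overlapped in a narrow band. Its difference was 0.20 ± 0.10 (SE, adjusted p = 0.541). Cox6a2 had 1.53, 1.88, 2.04 and 2.04 in Hydroxyurea mice and 1.76, 1.56, 1.92 and 1.43 in Control mice. Cox6b2 had -0.75, -0.37, -0.52 and 0.31 in Hydroxyurea mice and -0.45, -0.81, -0.55 and -0.69 in Control mice, with Hydroxyurea 4 again the highest and a difference of 0.30, or 0.08 without that mouse. Cox7a1 likewise was highest in Hydroxyurea 4, with 0.52, 0.80, 0.83 and 1.24 in Hydroxyurea mice and 0.74, 0.55, 0.71 and 0.78 in Control mice. Cox7b2 was among the most variable genes, with -4.15 to -2.82 in Hydroxyurea mice and -4.11 to -3.03 in Control mice.

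The widely expressed counterparts lay closer together. Cox4i1 had 6.70, 7.04, 6.86 and 6.76 in Hydroxyurea mice and 6.55, 6.86, 6.67 and 6.74 in Control mice, a difference of 0.13 ± 0.10 (SE, adjusted p = 0.666). The groups overlapped, and Hydroxyurea 2 was the highest (0.06 without it and 0.08 without Control 1). Cox6a1 had 7.72 to 8.27 in Hydroxyurea mice and 7.53 to 7.99 in Control mice, and Cox6b1 had 2.94 to 3.26 in Hydroxyurea mice and 2.97 to 3.17 in Control mice. Cox7a2 had 4.82 to 5.02 in Hydroxyurea mice and 4.87 to 5.11 in Control mice, and Cox8a had 7.18 to 7.71 in Hydroxyurea mice and 7.06 to 7.44 in Control mice. Cox7b, on chromosome X, differed by 0.08 (adjusted p = 0.71). Cox7a2l had the smallest SD of all 94 genes, 0.038, with 5.76 to 5.83 in Hydroxyurea mice and 5.70 to 5.79 in Control mice. The probe used for Cox7c was low in Control 1 alone, with 4.62 to 4.81 in Hydroxyurea mice, 4.04 in Control 1 and 4.73 to 4.89 in Control 2 to 4. Its difference was 0.13 ± 0.18 (SE). A second Cox7c probe, nearly as bright, had group means of 4.64 for Hydroxyurea and 4.61 for Control. The difference of that probe was 0.02 ± 0.08 (SE), and that of another, much dimmer probe was -0.05 ± 0.16 (SE). The cause of the low value in Control 1 was not tested.

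**Figure D2:**
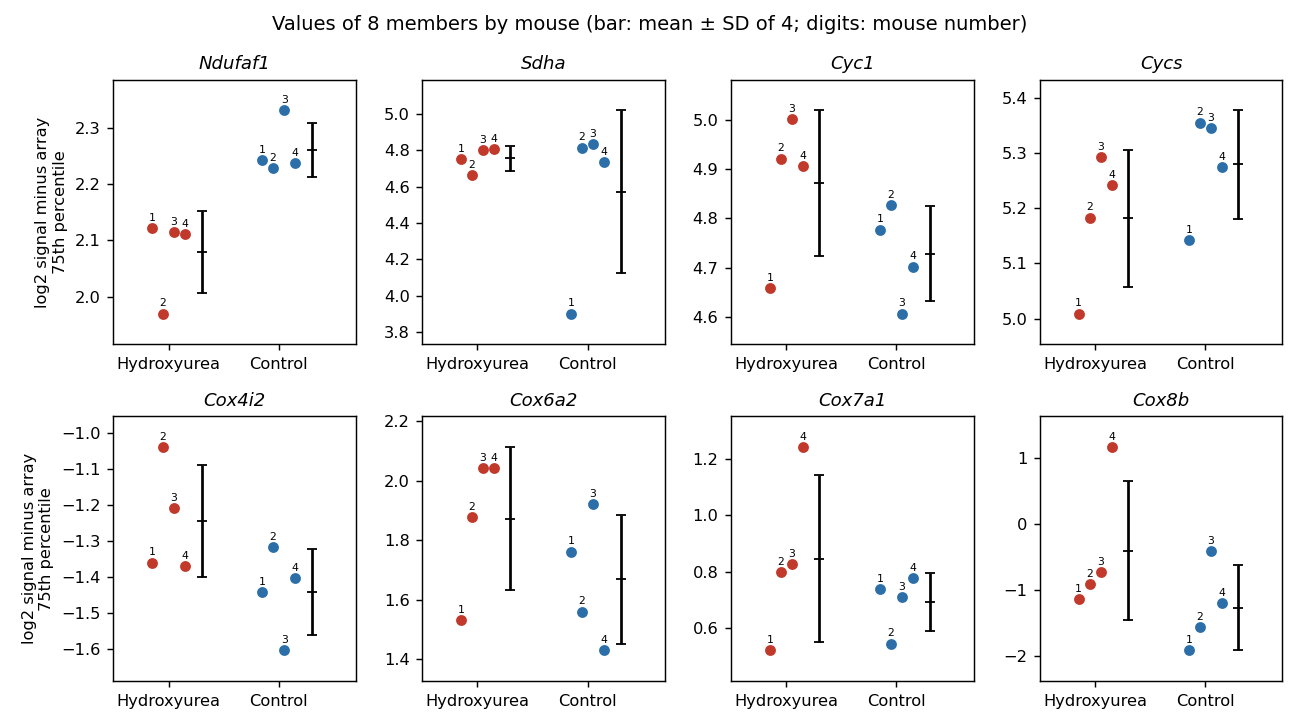
Log2 signal minus the array's 75th percentile for 8 genes in each mouse, Hydroxyurea left and Control right, with mean ± SD (n = 4) beside the points and the mouse number above each. Only Ndufaf1 shows groups that do not overlap, Sdha is low in Control 1 alone (3.90) and Cox8b is high in Hydroxyurea 4 (1.17). Each panel has its own vertical scale.

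Complex V was also centred near 0, with 9 of 17 genes above 0 and a median of 0.0068. In its F1 part, which holds the catalytic sites, Atp5d (the delta subunit) had 4.28, 4.43, 4.52 and 4.45 in Hydroxyurea mice, against 4.32, 4.31, 4.34 and 4.26 in Control mice, with 3 Hydroxyurea mice above all Control mice. The difference was 0.11 ± 0.07 (SE, adjusted p = 0.581). Atp5a1 (alpha) and Atp5e (epsilon) differed by 0.085 and 0.06, and Atp5c1 (gamma) by -0.11, the lowest of the complex. In the peripheral stalk, Atp5h (subunit d) differed by 0.13 and Atp5o, the oligomycin sensitivity conferring protein, by 0.16, and without Control 1 these were 0.075 and 0.048. Atp5o had 4.52 to 4.67 in Hydroxyurea mice, against 4.51 to 4.60 in Control 2 to 4 and 4.11 in Control 1, the lowest of the 8. The adjusted p-values of these genes were 0.581 to 0.793.

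Atp5g1, Atp5g2 and Atp5g3 encode the same mature c subunit of the membrane ring from different genes, and none of them differed between groups by more than 0.05. Atp5g1 had 5.87 to 6.10 in Hydroxyurea mice and 5.97 to 6.10 in Control mice. Atp5g2 had 5.95 to 6.08 in Hydroxyurea mice and 5.95 to 6.17 in Control mice. Atp5g3 had 6.21 to 6.38 in Hydroxyurea mice and 6.23 to 6.41 in Control mice. The 95% intervals of the 3 differences ran from -0.21 at the lowest to 0.17 at the highest.

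Genes with a motif in their promoter had treatment differences near those of the whole group. The 7 with the NRF1 word, which include Cox6a1, had a median difference of 0.06 and a range of -0.12 to 0.16. The 19 with the ETS word, which include Ndufaf1, had a median of 0.03, and the 5 with the YY1 word a median of -0.0091. The median over all 94 was 0.02.

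Variation between mice of a group was larger than the difference between groups. Each gene's values were set to a mean of 0 over the 8 mice and averaged over the 94 genes. This average was -0.08, 0.046, 0.056 and 0.047 in Hydroxyurea mice 1 to 4, and -0.09, 0.045, -0.0049 and -0.02 in Control mice 1 to 4. The group means were 0.017 ± 0.065 and -0.017 ± 0.055 (SD, n = 4 each), for Hydroxyurea and Control. Hydroxyurea 1 and Control 1 were the lowest, 1 mouse of each group, and the groups overlapped. Hydroxyurea 1 held the lowest value of the 8 mice for 29 of the 94 genes, against 7.88% of all genes. Control 1 also held it for 29, against 21.05% of all genes. Highest values fell most often in Hydroxyurea 2, for 26 genes (15.06% of all genes), and Control 2, for 24 genes (6.6% of all genes).

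**Figure D3:**
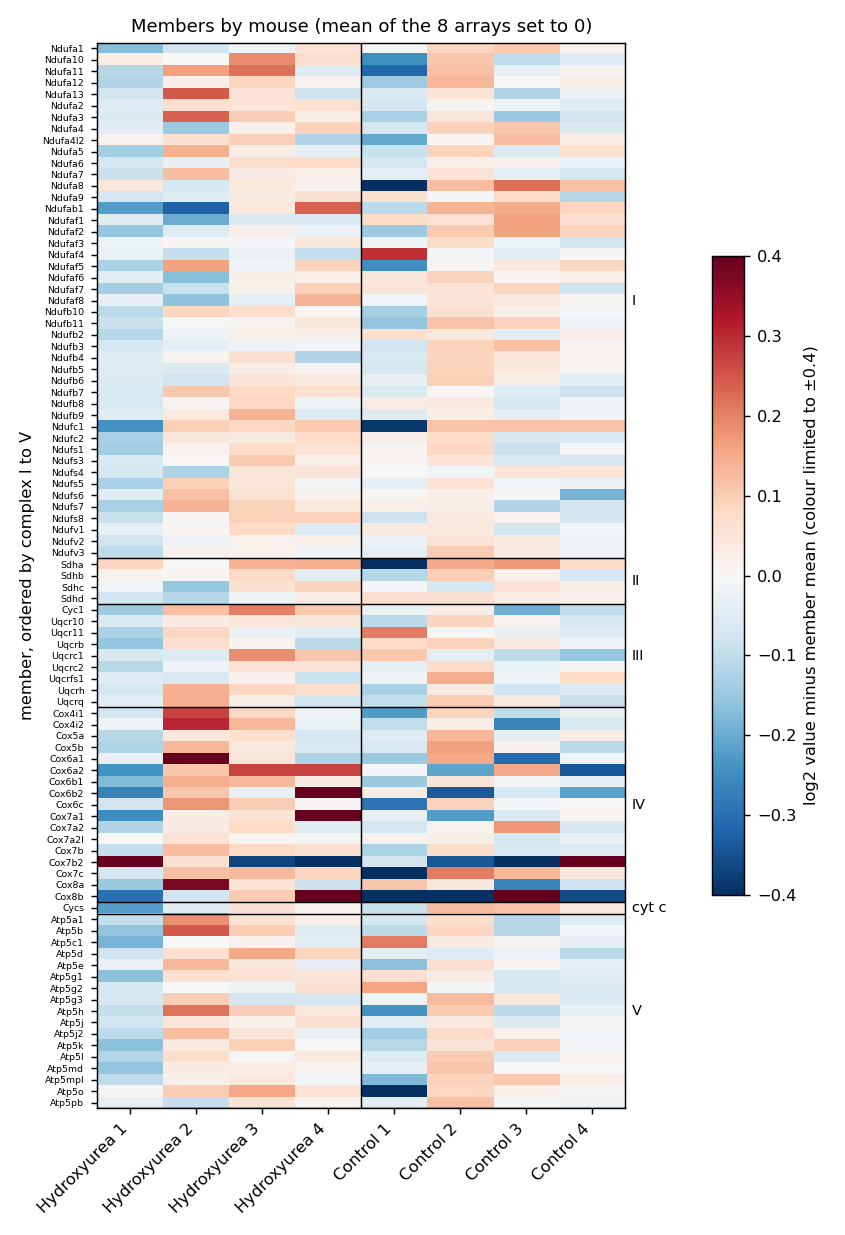
Log2 value minus the gene's mean over 8 mice for 93 of the 94 genes (rows, ordered by complex I to V), Hydroxyurea mice in the left columns and Control mice in the right. Red is above and blue below the mean, limited to 0.4 either way. Hydroxyurea 1 and Control 1 are mostly blue across complexes.

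Within a mouse most complexes lay on the same side of their mean. In Hydroxyurea 1 the averages of complexes I, III, IV and V were -0.08, -0.09, -0.07 and -0.10, and in Control 2 they were 0.06, 0.06, -0.05 and 0.07. Complex II was 0.0036 in Hydroxyurea 1 and -0.06 in Hydroxyurea 2, where the other 4 complexes were above 0. In Control 1 all 5 complexes were below 0, complex II the lowest at -0.20, where Sdha was low. Complex IV averaged -0.07, 0.14, 0.06 and 0.17 in Hydroxyurea mice 1 to 4, against -0.17, -0.05, -0.04 and -0.04 in Control mice 1 to 4. On this average Hydroxyurea 1 lay among the Control mice and the other 3 Hydroxyurea mice above them. For Hydroxyurea 4 this came with an average of 0.51 over the 6 restricted isoforms. Over the other 11 Cox genes the averages were -0.09, 0.17, 0.07 and -0.02 in Hydroxyurea mice 1 to 4, against -0.15, 0.09, -0.05 and -0.03 in Control mice 1 to 4, so Hydroxyurea 4 then also lay among the Control mice and Hydroxyurea 3 below Control 2.

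**Figure D4:**
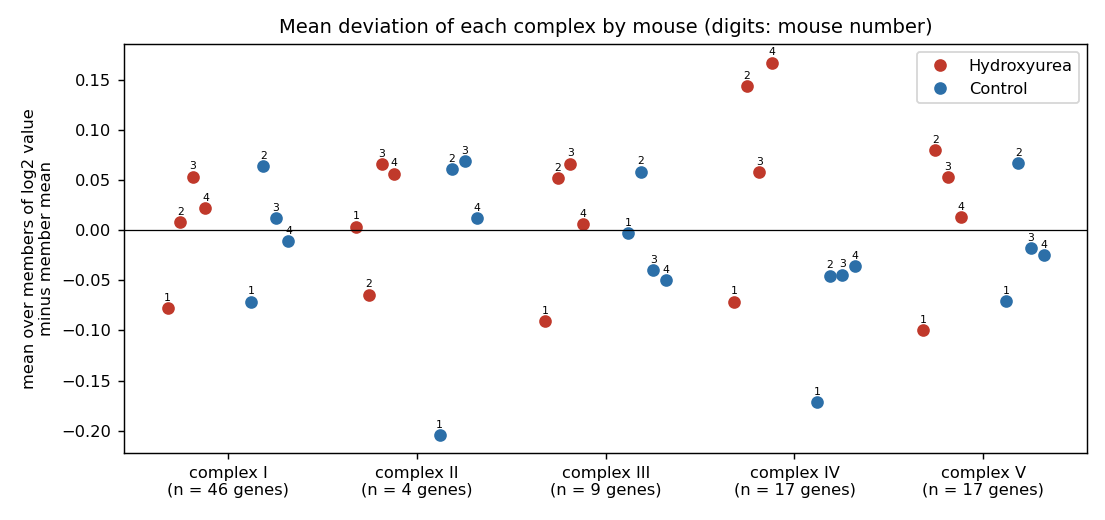
Average over the genes of each complex of the log2 value minus the gene's mean over 8 mice, 1 point per mouse, Hydroxyurea left of Control in each complex. The groups overlap in all 5 complexes, and the low Control point of complex II (-0.20) is Control 1.

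The scaling of the arrays decides on which side of 0 these genes lie. With the 75th percentile subtracted, 55 of 94 were above 0 for treatment (48.7% of all genes). With each array centred on its median, 24 were above 0 (29.7% of all genes), 0 were higher at an unadjusted p under 0.05 (1.18% of all genes) and their median was -0.06, while the median of all genes moved to -0.09. In the value table deposited by the authors, which holds z scores (each array's log signal minus its mean, divided by its SD), 86 of 94 were above 0 (50% of all genes). There 33 were higher at an unadjusted p under 0.05 (35.1%, against 5.52% of all genes), and 0 at an adjusted p under 0.05. When the steps of that z score were taken apart, subtraction of the array mean without the division left 10 of 94 above 0 (19% of all genes) and 0 higher at an unadjusted p under 0.05 (0.493% of all genes), with a median of -0.13 beside -0.15 for all genes. The 75th percentile scaling followed by division by the array SD left 86 above 0 (54.3% of all genes), with 34 higher at an unadjusted p under 0.05 (6.58% of all genes) and a median of 0.22 beside 0.02 for all genes. The SD of the log2 signal over all features was 3.88, 3.79, 3.91 and 4.02 on the Hydroxyurea arrays and 4.02, 4.09, 4.10 and 3.99 on the Control arrays. Both ways of taking it apart were chosen after seeing the data.

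**Figure D5:**
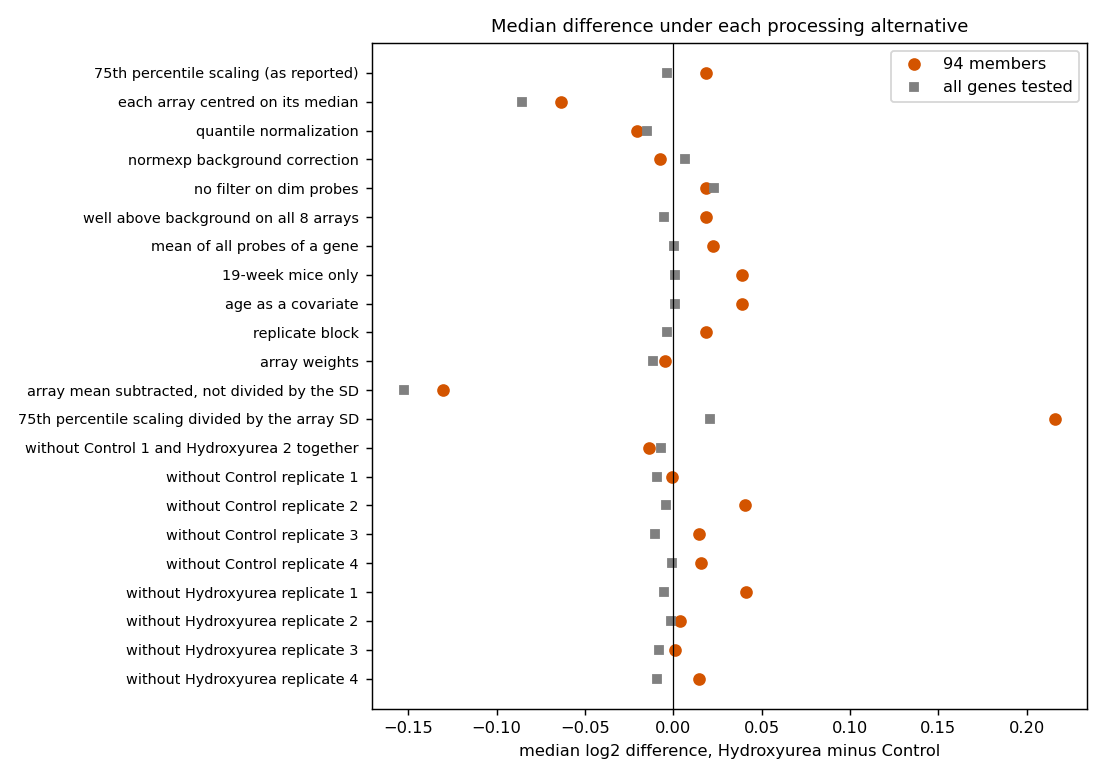
Median log2 difference, Hydroxyurea minus Control, of the 94 genes (circles) and of all genes tested (squares) under each way of processing or leaving out arrays, 1 per line, without the deposited value table, which is not on a log2 scale. The 2 medians lie within 0.05 of each other in all of those drawn but the scaling divided by the array SD, where they are 0.22 and 0.02.

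Age was compared within the Hydroxyurea group, with mice 1 and 2 (24 weeks) against mice 3 and 4 (19 weeks). No gene passed: 0 of 94 had an adjusted p under 0.05 (0% of all genes). At an unadjusted p under 0.05, 1 was lower in the older pair (1.44% of all genes) and 0 were higher (1.26% of all genes). The difference, 24 minus 19 weeks, was below 0 for 74 of the 94 (78.7%), against 55.5% of all genes, with a median of -0.06 against -0.02. This count rests on Hydroxyurea 1: without it 48 of the 94 were below 0 and the median was -0.0036, while without Hydroxyurea 2 the median was -0.12. Blood markers differed in these mice too, with summed signals of 160.6 and 139.4 at 24 weeks and 75.4 and 91.0 at 19 weeks, and all 5 were higher at an unadjusted p under 0.05. Other markers also lay on 1 side for age: choroid plexus (8 of 8 below 0, median -1.51), ependyma (5 of 5 below, -0.45), oligodendrocyte (6 of 6 below, -0.31), interneuron (6 of 6 below, -0.23), hippocampal neuron (8 of 8 above, 0.31) and microglia (6 of 6 above, 0.18), none at an unadjusted p under 0.05. The part of these cells in the age differences was not tested.

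The lower gene was Ndufab1, the mitochondrial acyl carrier protein that is also a subunit of complex I, chosen here after its value was seen. It had -1.99 and -2.09 at 24 weeks, against -1.72 and -1.53 at 19 weeks, a difference of -0.41 (adjusted p = 0.9999 in the limma fit). Control mice, all 19 weeks old, had -1.87 to -1.62. The largest age differences were those of Cox8b (-1.24), Cox7b2 (0.88) and Cox6b2 (-0.45), the genes most variable between mice. With only the 19-week mice, Hydroxyurea 3 and 4 against the 4 Control mice, 73 of 94 genes were above 0 for treatment (50.2% of all genes). The median was then 0.039, and 4 were higher at an unadjusted p under 0.05 (2.76% of all genes): Atp5d, Cox6a2, Cox7a1 and Cyc1. The smallest adjusted p of the 94 was 0.723 there. With all 8 mice and age as a covariate, 2 were higher at an unadjusted p under 0.05 (2.96% of all genes), Cox7a1 and Cox8b.

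Other mitochondrial genes were described by lists of textbook members. Of 37 assembly factors named outside the families above, 15 were above 0 and 22 below, with a median of -0.03, and without adjustment 2 of them were higher (3.53% of all genes) and 4 lower (6.36% of all genes) at p under 0.05. With only the 19-week mice the counts turned round, to 22 above and 15 below, with a median of 0.03. They were 24 above and 13 below with division by the array SD, and 19 above and 18 below without Hydroxyurea 2. Acad9, a factor that acts with the Ndufaf1 protein in complex I assembly, had 2.11, 2.03, 2.11 and 2.15 in Hydroxyurea mice, against 2.53, 2.32, 2.38 and 2.28 in Control mice. All Hydroxyurea mice were below all Control mice, and the difference was -0.28 ± 0.07 (SE, limma adjusted p = 0.452). Sdhaf2, which attaches the flavin to the Sdha protein, differed by -0.19 (adjusted p = 0.476), with 1.53 to 1.75 in Hydroxyurea mice and 1.81 to 1.91 in Control mice.

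Of 18 regulators of respiratory genes, all 18 were below 0, with a median of -0.13, against 51.3% of all genes. At an unadjusted p under 0.05, 4 of them were lower (22.2%, against 6.36% of all genes) and 0 higher: Creb1, Gabpa, Sirt1 and Tfb2m. Gabpa encodes the DNA-binding subunit of GABP, the factor named above for the ETS word. It had -0.04, -0.16, -0.34 and -0.14 in Hydroxyurea mice, against -0.02, 0.05, 0.12 and 0.09 in Control mice, with no overlap, a difference of -0.23 ± 0.08 (SE, adjusted p = 0.476). Creb1, a transcription factor that responds to cyclic AMP, had -1.17 to -1.02 in Hydroxyurea mice and -0.92 to -0.86 in Control mice, a difference of -0.22 (adjusted p = 0.452). Under the other ways of processing and leaving out arrays, 15 to 18 of the 18 were below 0. The share of all genes also moved. All 18 were below 0 with median centring and with the array mean subtracted, where only 29.7% and 19% of all genes were above 0. With only the 19-week mice 15 were below 0, where 50.2% of all genes were above 0.

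Enzymes of the TCA cycle lay on both sides, 11 above and 7 below 0 of 18, with a median of 0.03. Pdhb, a subunit of pyruvate dehydrogenase, had 4.79 to 4.88 in Hydroxyurea mice and 4.96 to 5.17 in 3 Control mice, with no value for Control 3, and differed by -0.20 (adjusted p = 0.485). Of 16 carriers and exchange proteins, 10 were above 0, with a median of 0.04, and 1 was lower at an unadjusted p under 0.05 (6.36% of all genes), Vdac3, an outer membrane channel (-0.13, adjusted p = 0.494). Ucp2, an uncoupling protein, differed by 0.65 ± 0.38 (SE, adjusted p = 0.581) and its groups overlapped. Of 19 import genes 10 were above 0 (median 0.0056), and of 25 genes of the mitochondrial ribosome 8 were above 0 (median -0.04), with 0 past an unadjusted p of 0.05 in either list (9.89% of all genes). The scaling moved these lists as well. In the value table deposited by the authors, import genes were above 0 in 18 of 19 with 5 higher at an unadjusted p under 0.05, 20 of 25 ribosomal genes with 3 higher, 15 of 16 carriers with 2 higher, and 15 of 18 TCA cycle genes with 4 higher (5.52% of all genes). With arrays centred on their median, 6, 5, 6 and 2 genes of these lists were above 0 (29.7% of all genes). In the value table, 50% of all genes were above 0. Of the import and ribosomal genes, Tomm5, of the outer membrane import complex, differed by -0.09, Timm50, of the inner membrane import complex, by 0.12, and the ribosomal genes Mrpl27 and Mrpl44 by -0.13 and -0.13.

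Different probes of a gene did not always give the same sign. Of the 94 genes, 25 had more than 1 probe, and in 12 of these the probes lay on opposite sides of 0. The widest gap was 0.387, for Atp5k, a membrane subunit of ATP synthase. For the assembly factor Ndufaf5 the probe used gave 0.06 and a second, dimmer probe gave -0.32 (unadjusted p = 0.0068). Which transcripts each probe reads was not examined.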

How the data were processed

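RNA of each hippocampus was labelled with Cy3 and hybridised to 1-colour Agilent arrays, per the labels' protocols. Per the file headers, Feature Extraction 12.0.3.1 gave each spot a background-subtracted signal intensity, not normalized between arrays, with the array design on build mm9. The value table deposited by the authors holds, per array, the log signal as a z score. Scale and centring were settled by recomputing it from the scanner intensity, which differed by at most 0.005. Its column medians were -0.21 to -0.17.

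Log2 of the processed signal minus the array's 75th percentile was computed here. Of 55681 probes, 28331 were named through RefSeq accessions (GRCm38.p6 table), giving 21368 genes. The probe with the highest mean stood for each of the 5754 genes with several. A gene was tested (16618) if its probe had a value on at least 6 arrays and a signal flagged well above background on 4 or more. Outlier and control spots were left out, and no spot was saturated. Signal over background and 4 arrays per group limit the precision. The test was limma's (version 3.58.1, lmFit then eBayes, under R 4.3.3), two-sided, and p-values were adjusted by the Benjamini-Hochberg method over the 16618 genes. A fit of 3 group means gave the age comparison. The fits were also run on simulated data with 200 changed genes. The labels speak of separate animals. They state that cages were shared, not which mice shared one.

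The members and lists were chosen with earlier results of these data known. Named were the 6 members of each complex with the smallest p, Cycs, isoform sets, the 5 most and 3 least variable members, the 3 largest age differences and the 2 genes of each pathway list with the smallest p. Replicate numbers were not used to pair the mice in the main fit. Deviations from the group mean had correlations of -0.21 to 0.20 between same-numbered mice. Between Control 3 and Hydroxyurea 2 and 4 they were -0.40 and 0.56. These values cannot exclude a pairing. Alternatives were other scalings, normexp background correction with an offset of 50 (on the median spot signal), filters, probe rules, the value table, age, array weights, the replicate block and leaving out arrays. Promoters come from RefSeq (GRCm38.p6). Some items are not reported here, and 1 of the 94 genes is not drawn in the plots.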

Additional observations from a re-analysis of the deposited data

Results flagged for a closer look

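Values were looked at within each group of 4 mice for 44 of the genes, 88 groups in all, for a mouse whose gap to the nearest other was large beside the range of its group (Dixon's criterion, which chance meets in about 1 in 20 groups). In 5 groups a mouse stood apart. Atp5g1 was lowest in Hydroxyurea 1, at 5.87, and Atp5g3 was highest in Hydroxyurea 2, at 6.38. Ndufaf1 had a mouse apart in both groups, Hydroxyurea 2 lowest at 1.97 and Control 3 highest at 2.33. Sdha was lowest in Control 1, at 3.90. The cause of these gaps was not tested.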

How the results depend on the processing

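In every setting run on the treatment comparison, 0 of the 94 genes passed an adjusted p of 0.05, the smallest being 0.184 for Ndufaf1 with array weights. Ndufaf1 was below 0 in all 21 other settings. The median difference of 0.02 became -0.0633 with arrays centred on their median, -0.1301 with the array mean subtracted and 0.2159 with division by the array SD, and -0.0008 to 0.0412 when 1 mouse was left out. The number of genes higher at an unadjusted p under 0.05, 0 as reported, was 33 in the deposited value table, 34 with division by the array SD, 4 with 19-week mice only, 2 with age as a covariate, and 0 to 3 when 1 mouse was left out (2 without Control 2, 3 without Hydroxyurea 1). The number lower, 1 as reported, was 5 with the array mean subtracted, 3 with array weights, 2 with normexp and without Control 1 and Hydroxyurea 2 together, 0 in the value table, with division by the array SD, with 19-week mice only and with age as a covariate, and 1 to 3 when 1 mouse was left out (3 without Control 1). Of the 16618 genes tested as reported, 1057 were lower at an unadjusted p under 0.05. That count over all genes was 3122 with the array mean subtracted, 1943 with array weights and 1164 with normexp. It was 1422 without Control 1 and Hydroxyurea 2 together, 1647 without Control 1 and 1096 in the value table. With division by the array SD it was 952, with 19-week mice only 644 and with age as a covariate 679. The cause of these changes was not tested. Of all genes past an unadjusted p of 0.05, 64.3% were lower as reported, 90.2% with median centring, 97.4% with the array mean subtracted, which moved the median of all genes to -0.15, and 46.6% with division by the array SD. The age comparison called 0 to 7 of all genes when 1 mouse was left out (1 without Hydroxyurea 3, 7 without Hydroxyurea 4). With the replicate number as a block, 0 genes passed, the median was 0.0183 and the counts were 0 higher and 1 lower.

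Of 29 treatment differences followed over 21 other settings, 8 kept their sign and 21 turned in some setting. With division by the array SD, Sdhd was 0.0781, Uqcrfs1 0.0852, Uqcrb 0.0951, Cycs 0.1024, Atp5c1 0.1071, Ndufa1 0.1101, Sdhc 0.1296 and Uqcr11 0.1629. With the array mean subtracted, Ndufa10 was -0.0048, Cyc1 -0.0058, Atp5h -0.0159, Cox4i1 -0.0161, Atp5d -0.0362, Uqcrh -0.038, Ndufb7 -0.0559, Uqcrc1 -0.0582, Atp5a1 -0.0634, Cox7b -0.0646, Atp5e -0.0878 and Sdhb -0.1165. With median centring Atp5e was -0.0209 and Sdhb -0.0497. With all probes averaged Sdhb was -0.0145, Uqcrb 0.0161 and Sdhc 0.0388. With quantile normalization Sdhb was -0.0077 and Sdhc 0.0185, and with normexp Atp5a1 was -0.0019 and Cox7b -0.0137. Sdhc was 0.0735 with 19-week mice only and with age as a covariate, and 0.0306 with array weights. Without Control 1 and Hydroxyurea 2 together, Sdha was -0.0083, Atp5e -0.0191 and Sdhc 0.0413. When 1 mouse was left out, Sdha was -0.0396 (without Control 1) to 0.2717, Sdhb -0.0005 (without Control 1) to 0.0701 and Sdhc -0.0361 to 0.0441, above 0 without Control 3, Control 4 or Hydroxyurea 2 (0.0134, 0.0023 and 0.0441).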
